A study of Mus musculus with 9 samples.

Results

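Akap12 (Ensembl ENSRNOG00000019549, A-kinase anchoring protein 12) is 1 of the 819 genes named in the 3 tables of differing genes, and was picked because its row stood in the tables of E-SCs against M-SCs and of M-SCs against SCs, and for its high level. RNA was sequenced from RSC96, a rat Schwann cell line, in 3 groups of 3 libraries. E-SCs were cells given exosomes (Exos) from MenSCs, which are stem cells from menstrual blood. M-SCs were given conditioned medium (CM) of MenSCs instead, and SCs were the control cells. The sample titles describe SCs as cultured together with control MenSCs, whereas the design text describes plain control cells, so what the SCs had received is uncertain. All 3 groups were the same cell line with no stated genetic change, and neither the dose nor the duration of treatment is given in the labels.

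The protein is known as gravin in humans and as SSeCKS, for Src-suppressed C kinase substrate, in rodents. It is a large scaffold that holds protein kinase A, through its regulatory subunits, at the plasma membrane and the cytoskeleton, and also binds protein kinase C, calmodulin and the beta-2 adrenergic receptor. By keeping kinases close to their substrates, such anchoring proteins set where in a cell a cyclic AMP signal acts. In cultured rodent fibroblasts SSeCKS restrains growth and takes part in the remodelling of the actin cytoskeleton. The annotation in the authors' deposited table gives Akap12 the functions protein kinase A binding and adenylate cyclase binding, and places it at focal adhesions, the cytoskeleton and the plasma membrane. No other of the 819 genes carried either of those functions, and 14 genes, Akap12 among them, carried the term focal adhesion. These terms were chosen after the values were seen.

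The level of Akap12 was highest in E-SCs, intermediate in SCs and lowest in M-SCs. On the scale of library-scaled read counts, which are reads divided by a factor for the depth of the library, E-SCs had 179550, 177394 and 188040. M-SCs had 36936, 37008 and 36611, and SCs had 117315, 123070 and 123876. The 3 groups did not overlap on this scale. Means were 181661 ± 5628 in E-SCs, 36852 ± 212 in M-SCs, against 121420 ± 3578 in SCs (SD, n = 3 each). The authors' FPKM, which also divides by transcript length, put the groups in the same order. It was 843, 833 and 877 in E-SCs, 172, 171 and 171 in M-SCs, against 545, 572 and 577 in SCs. The group means were 851 ± 23.1 FPKM in E-SCs, 171 ± 0.742 in M-SCs, against 565 ± 17.5 in SCs.

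**Figure D1:**
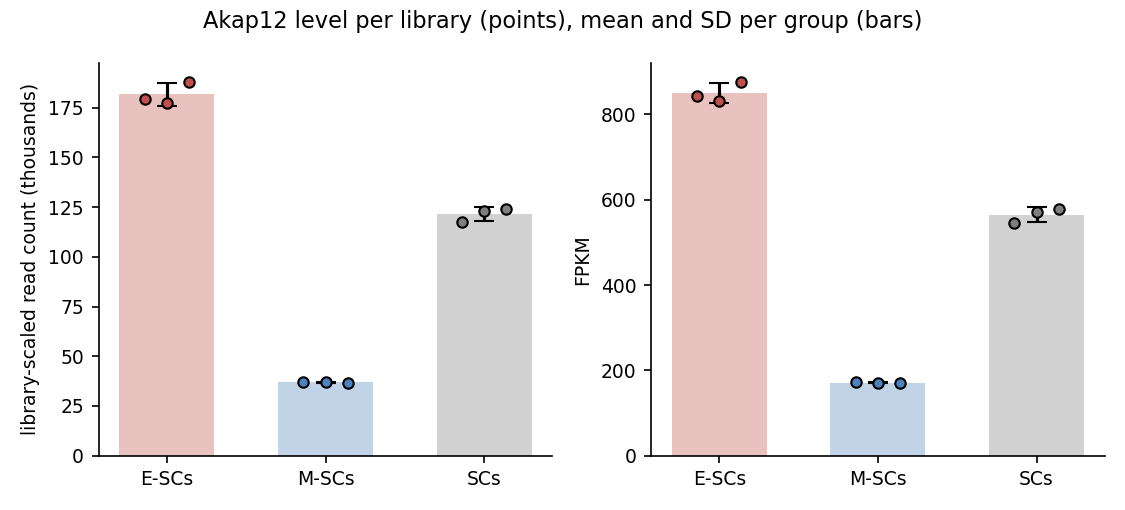
Level of Akap12 in each library (points), with the mean (bars) and SD (error bars) of the 3 libraries of a group, as library-scaled read count in units of 1000 on the left and as FPKM on the right. On both scales the E-SCs libraries stand above the SCs libraries and the M-SCs libraries lie far below both.

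Set against M-SCs, E-SCs were 4.93 times as high, a log2 difference of 2.30 (SE 0.03, from the spread of the 3 libraries in each group). Set against SCs, M-SCs were at 0.304 times the level, a log2 difference of -1.72 (SE 0.03). These contrasts chose the gene and are described without a test. The smallest difference between any E-SCs library and any M-SCs library was 2.26 on the log2 scale, and the smallest between any M-SCs and any SCs library was 1.66. By size of log2 change in the authors' deposited table, Akap12 ranked 115th of 555 genes for E-SCs against M-SCs and 172nd of 405 for M-SCs against SCs. By size of change it was thus not at the top of either list, and its high level was part of why it was picked. Its p-value and FDR in the authors' deposited table are written as 0 in both comparisons, and such a p-value is given to 8 genes in the first table and 5 in the second, Akap12 included.

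E-SCs against SCs was the contrast in which Akap12 was not listed. The authors' deposited table for that pair holds no gene with a log2 change under 1.02, and Akap12 lay below that. Its values could still be compared, because E-SCs and SCs values stood in the other tables and a library that appeared in 2 tables had identical values in both. Akap12 rose in E-SCs to 1.50 times the SCs level, or by 0.58 on the log2 scale (SE 0.03, limma adjusted p = 1.32e-07 over the 316 genes with a value in all 9 libraries). That SE comes from a fit of all 9 libraries, with the closely agreeing M-SCs included. The spread of the E-SCs and SCs libraries alone gave an SE of 0.04. All 3 E-SCs libraries were higher than all 3 SCs libraries, by at least 0.52 on the log2 scale. Of the same 316 genes, 31.0% passed limma's test in either direction with 13.3% called higher and 17.7% called lower in E-SCs. For 40.2% of them the E-SCs and SCs libraries did not overlap, and for 19.6% they did not overlap with E-SCs higher. Part of the 316 genes had been selected on this very contrast, by being listed for it. Among the 212 genes not listed for it, 15.1% passed the test, and 12 genes (5.66%), Akap12 among them, were called higher in E-SCs. The exact two-sided permutation test over the 6 libraries gave p = 0.10, the smallest value that 3 libraries against 3 can give. Without the mean-variance trend limma gave an adjusted p of 0.0064, and with any 1 of the 6 libraries left out the adjusted p was at most 6.82e-06.

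On the log2 scale the SCs level stood 74.7% of the way up from the M-SCs level to the E-SCs level. A level of RNA per library cannot separate fewer expressing cells from less RNA in each cell. Among the 222 genes listed for both E-SCs against M-SCs and M-SCs against SCs, 55 had the order of Akap12, with E-SCs above SCs and SCs above M-SCs. In 24 of them, or 10.8% of the 222, the 3 groups did not overlap, Akap12 among them. Over those 55 genes the median log2 difference was 1.63 for E-SCs minus M-SCs, -1.30 for M-SCs minus SCs and 0.32 for E-SCs minus SCs. Akap12 ranked 14th of the 55 for E-SCs minus M-SCs. The mirror order, M-SCs above SCs and SCs above E-SCs, was more frequent, with 90 genes, of which 28 had no overlap between the groups.

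The libraries of a group agreed closely on Akap12. The reads behind its value numbered 179550, 171992 and 163125 in E-SCs, 39629, 33158 and 42525 in M-SCs, against 132154, 129323 and 115720 in SCs. The coefficient of variation of the scaled count was 3.10% in E-SCs, 0.574% in M-SCs, against 2.95% in SCs. Counting alone gives up to 0.248% in E-SCs, 0.549% in M-SCs, against 0.294% in SCs, so that the M-SCs libraries differed by about as much as counting error gives, and the E-SCs and SCs libraries by more. Scaled count per FPKM ran from 213 to 216 over the 9 libraries, so the authors' 2 ways of adjusting for depth differed by little for this gene.

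The share of Akap12 in the reads depended on which listed genes were counted. Over the 316 genes with a value in all 9 libraries, its share was 64.2, 64.4 and 65.6% in E-SCs, 18.7, 18.3 and 18.7% in M-SCs, against 52.3, 53.1 and 53.3% in SCs. The exact 95% binomial interval was narrow, for example 64.0 to 64.4% in the first E-SCs library, 18.5 to 18.9% in the first M-SCs library and 52.1 to 52.5% in the first SCs library. These intervals cover counting error only, since copies made by PCR are not independent molecules. The mean shares were 64.7 ± 0.740% in E-SCs, 18.5 ± 0.251% in M-SCs, against 52.9 ± 0.499% in SCs (SD, n = 3 each). Within the 316 genes, the next gene by reads held far less. It was Gadd45a at 2.97 ± 0.0700% in E-SCs, the chemokine gene Cxcl1 at 7.59 ± 0.358% in M-SCs and the cell adhesion gene Flrt3 at 3.56 ± 0.150% in SCs.

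Over all listed genes with a value in a library, the share was lower. It was 33.7, 33.4 and 34.7% over 665 genes in E-SCs, 7.05, 6.97 and 6.98% over 738 genes in M-SCs, against 42.7, 43.5 and 43.4% over 551 genes in SCs. On that count SCs stood above E-SCs, but each group's share is over a different set of genes. The sets of E-SCs and M-SCs hold Mt2A, a metallothionein gene that is not among the 316, which had 60922 reads in the first M-SCs library, above the 39629 of Akap12.

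A share moves with the other genes too. Summed, the other 315 genes reached 98963 ± 959 in E-SCs, 161954 ± 3346 in M-SCs, against 108156 ± 1078 in SCs. In M-SCs the count of Akap12 was the lowest of the 3 groups and the summed count of the other genes the highest. The log2 ratio of shares was 1.80 for E-SCs over M-SCs, -1.51 for M-SCs over SCs, with 0.29 for E-SCs over SCs, each smaller than the difference in level. All of these shares are of selected genes and not of a whole library, whose total is unknown.

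**Figure D2:**
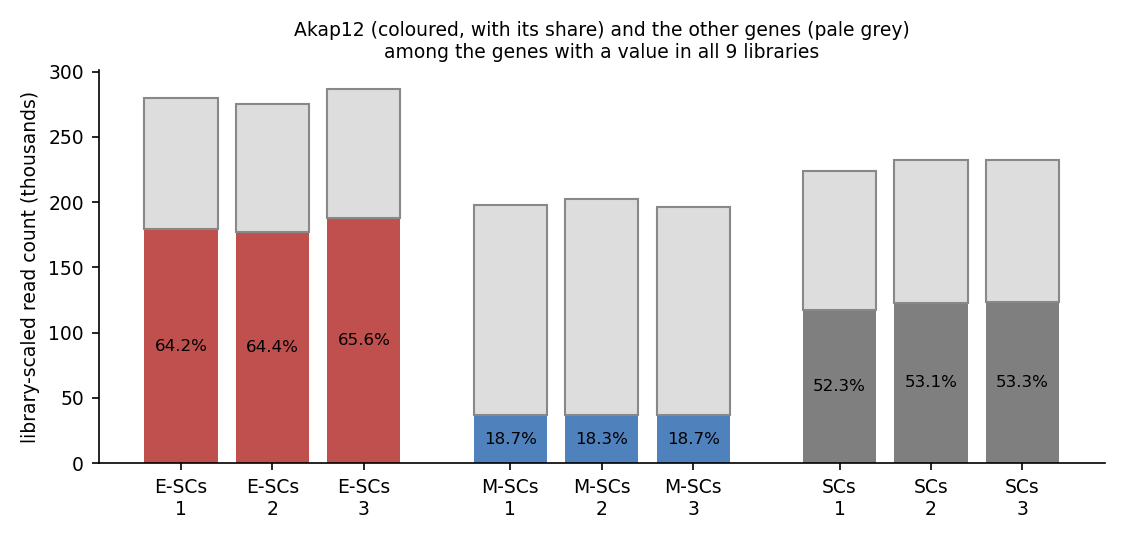
Library-scaled read counts, in units of 1000, of Akap12 (coloured part, with its share in percent) and of the other 315 genes summed (pale part), for the genes with a value in all 9 libraries. The coloured part makes up over 64% of each E-SCs bar, under 19% of each M-SCs bar and over 52% of each SCs bar, while the pale part is tallest in M-SCs.

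Summed scaled counts over these 316 genes show how much of the difference in its own direction came from Akap12. For E-SCs minus M-SCs, 144810 of the 179315 counts gained came from Akap12, or 80.8%, while the genes that were lower in E-SCs summed to -97497. For M-SCs minus SCs, its difference of -84568 made up 72.8% of the summed decreases of -116226, while the increases summed to 85456. In E-SCs minus SCs, its increase of 60241 made up 89.5% of the summed increases of 67306, while the decreases summed to -16258. Within the 316 genes, Gadd45a had the next largest difference in the direction of Akap12, by 5465 for E-SCs minus M-SCs and 1675 for E-SCs minus SCs. For M-SCs minus SCs it was Flrt3, by -5161. The percentages and this order hold for the 316 genes only. Hspa9, which is not among them, had 32916 reads in the first E-SCs library against 17483 in the first M-SCs library. The sums weigh long and abundant genes most, and say nothing of how many genes changed.

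Per length, Akap12 remained among the most abundant of the listed genes. By FPKM it ranked 2nd of 555 genes in every E-SCs library, 9th of 738 in every M-SCs library and 1st of 405 in every SCs library. These lists differ in length because the FPKM of a gene was deposited only where it was listed. In E-SCs the gene above it was Mt2A, with 2140, 2252 and 2046 FPKM. In M-SCs, Hspa9, a mitochondrial chaperone gene, stood close above Akap12 in the order of FPKM with 177, 172 and 173, and the lowest Hspa9 library was within 1 FPKM of the highest Akap12 library. By scaled read count, Akap12 ranked 1st in every E-SCs and SCs library and 2nd in every M-SCs library. Reads per unit of FPKM, which grow with transcript length, were 17.4 times as high for Akap12 as for Mt2A in the same library.

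Over the 222 genes with FPKM in all 9 libraries, which allow a like comparison, Akap12 ranked 1st in every E-SCs library, 4th in every M-SCs library and 1st in every SCs library. Its mean over the 9 libraries was 529 FPKM. The genes next below it were Cxcl1, a neutrophil chemokine, at 251 FPKM, Glrx, a glutaredoxin that reduces glutathionylated proteins, at 182 FPKM, and Gadd45a, a stress gene that restrains the cell cycle, at 148 FPKM. Akap12 had thus 2.11 times the FPKM of Cxcl1. That order was not kept in M-SCs, where Cxcl1 had 501 ± 29.0 FPKM and Glrx 300 ± 8.78 FPKM, both above the 171 ± 0.742 of Akap12.

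**Figure D3:**
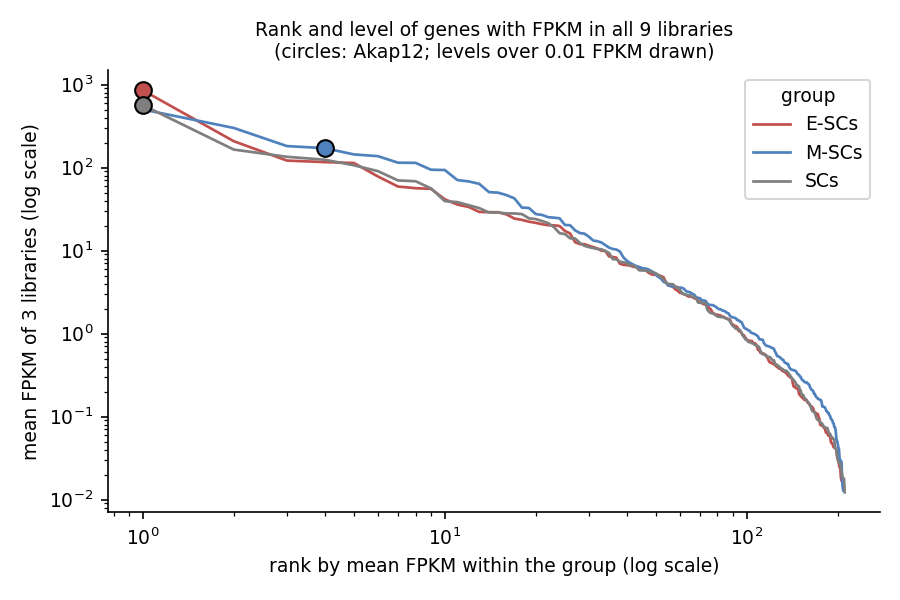
Mean FPKM of the 3 libraries of a group against rank within the group, both axes logarithmic, for the 222 genes with FPKM in all 9 libraries (genes at or below 0.01 FPKM not drawn). The circles mark Akap12, at rank 1 with 851 FPKM in E-SCs, rank 4 with 171 FPKM in M-SCs and rank 1 with 565 FPKM in SCs.

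The genes whose values followed those of Akap12 most closely were sought among 160 named genes with a value in all 9 libraries and a mean log2 value of at least 5 in a group. Likeness was Pearson's r of the log2 values over the 9 libraries, given as a description. The points fall into 3 groups and the genes had been selected for differing between them, so high values are common. The median absolute r was 0.916, 35 genes had an r above 0.9 and 53 had one below -0.9. The 10 most like genes had an r from 0.973 to 0.998. In falling order they were Tnfsf18, Prickle1, Gadd45a, Lpar1, Sh3bp5, Il9r, Trib3, Sema3d, Rab30 and Cdh17.

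Tnfsf18, which encodes the TNF-family ligand of the receptor GITR, had scaled counts of 1388, 1345 and 1345 in E-SCs, 118, 117 and 140 in M-SCs, against 646, 728 and 808 in SCs. Its groups did not overlap and stood in the order of Akap12. Prickle1, a planar cell polarity gene, had scaled counts of 2843, 2825 and 3100 in E-SCs, 830, 817 and 766 in M-SCs, against 2302, 2321 and 2471 in SCs. Here too the groups did not overlap, and SCs lay nearer to E-SCs. Gadd45a had scaled counts of 8500, 8143 and 8320 in E-SCs, 2584, 2958 and 3028 in M-SCs, against 6811, 6503 and 6624 in SCs, again without overlap. The log2 difference of E-SCs minus M-SCs was larger than that of Akap12 for Tnfsf18, at 3.43, and for Il9r, the receptor of interleukin-9, at 3.28. For the other 8 genes it lay between 1.21 and 1.86. For E-SCs minus SCs the difference ranged from 0.05 for Rab30, a small GTPase of the Golgi, to 0.97 for Il9r, with 0.49 for Lpar1, a receptor for lysophosphatidic acid, and 0.47 for Sema3d, a secreted guidance factor. Akap12, at 0.58, lay near the middle of that range, and Trib3, a stress-induced pseudokinase, near its lower end with 0.08. Among these 10 genes, Akap12 was matched only by Tnfsf18 and Il9r in being over 0.5 higher in E-SCs than in SCs.

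The 5 most unlike genes had an r from -0.998 to -0.994 and were the chemokine gene Ccl2, Cpt1a, which controls the entry of fatty acids into mitochondria, the ferroxidase ceruloplasmin gene Cp, the Mediator subunit gene Med24 and the xanthine dehydrogenase gene Xdh. Ccl2 had scaled counts of 805, 802 and 737 in E-SCs, 3117, 3267 and 2944 in M-SCs, against 1140, 1028 and 1045 in SCs. Cpt1a had 520, 524 and 483 in E-SCs, 2142, 2015 and 2044 in M-SCs, against 682, 691 and 659 in SCs. Both stood in the mirror order, highest in M-SCs and lowest in E-SCs, with no overlap between the groups. The same held for 28 of the 222 genes listed for both E-SCs against M-SCs and M-SCs against SCs. By Spearman's rank correlation only 4 of the 10 most like genes were again among the top 10. With log2(FPKM + 1) it was 9 of 10, and with any 1 library left out 7 to 10. Of the 5 most unlike genes, Spearman's rank correlation kept only 1 among its lowest 5, and log2(FPKM + 1) kept 4.

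**Figure D4:**
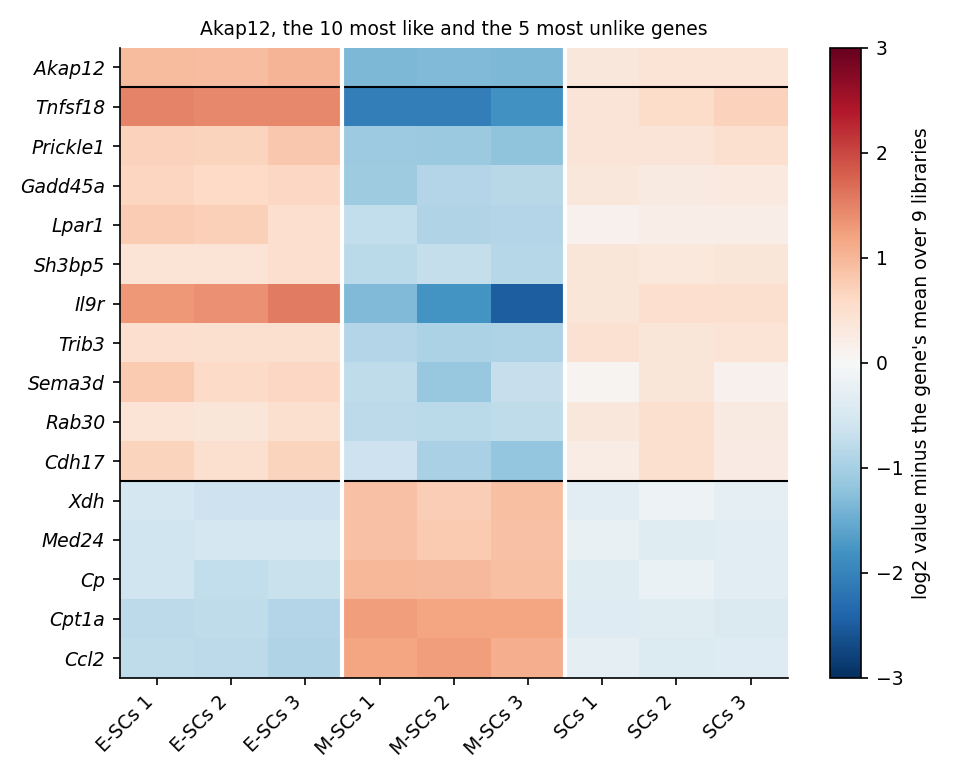
Log2 values of Akap12 (top row), the 10 most like genes (middle) and the 5 most unlike genes (bottom) in the 9 libraries, each minus the gene's mean over the 9, from low (blue) to high (red). Akap12 and the 10 genes are high in E-SCs and low in M-SCs, and the 5 unlike genes the reverse, with the SCs mean between. For Rab30 and Cdh17 the SCs and E-SCs libraries overlap.

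The other genes of the pathways that Akap12 serves were looked up in lists made with earlier results of these data known. A gene absent from the tables was not shown to be unchanged, because the tables hold only genes with at least a 2-fold difference. For that reason the median log2 difference over a whole table lies just past that cut, on the side with more genes. The table medians below are given as a description, and the distance of a list median from them is not an effect size. Of 33 other genes of A-kinase anchoring proteins, 0 were listed in any table. The same held for 9 genes of protein kinase A subunits and inhibitors, 23 of protein kinase C isoforms and substrates, 16 of other binding partners and 22 of mitogen and retinoid feedback. Only 819 genes were listed in all, and what share of the measured genes this makes is unknown. The counts of 0 are therefore not read as a trait of these lists. Of 33 genes looked up under the actin cytoskeleton, 1 was listed, Ctgf, which encodes the secreted matrix protein CTGF rather than a part of the cytoskeleton. It had 13699, 13207 and 11451 reads in E-SCs, against 6936, 5924 and 8101 reads in M-SCs, and rose by 1.02 on the log2 scale (SE 0.03, limma adjusted p = 1.99e-08). Genes listed for E-SCs against M-SCs had been selected on that contrast, and 92.1% of the 555 passed limma's test, 36.6% higher in E-SCs.

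Of 39 genes that make, break down or sense cyclic AMP, 3 were listed for E-SCs against M-SCs, 1 for M-SCs against SCs, but 0 for E-SCs against SCs. Of the 3, 2 passed limma's test, both lower in E-SCs, where 92.1% of the 555 genes of the table passed, 36.6% higher and 55.5% lower. Pde3b, a cyclic nucleotide phosphodiesterase, had 1, 0 and 0 reads in E-SCs, against 7, 6 and 9 in M-SCs, which is 0.0502 times as many after correction for depth (exact 95% interval 0.00122 to 0.310, counting error only). Pde8a, a phosphodiesterase specific for cyclic AMP, had 0, 5 and 0 reads in E-SCs, 6, 7 and 16 in M-SCs, against 0, 5 and 1 in SCs. The adjusted p of Pde8a was 0.021 for E-SCs against M-SCs and 0.030 for M-SCs against SCs, and of the 6 fits that left out 1 library it stayed past the threshold of 0.05 in 2 in the first comparison (without E-SCs library 2 or M-SCs library 1) and in 1 in the second (without SCs library 2). Rapgef3, which encodes the cyclic AMP sensor EPAC1, had 10, 0 and 2 reads in E-SCs and 0 in each M-SCs library, with an adjusted p of 0.071. The median log2 difference of the 3 genes was -2.37, against -1.10 over all 555 genes, and is the same with Rapgef3 at its bound of 2.14, which takes 3 reads over the M-SCs group. All these genes had few reads, and none came near the level of Akap12.

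Genes that cyclic AMP can induce through the factor CREB moved in both directions. Of 23 such genes, 4 were listed for E-SCs against M-SCs, of which 2 were called higher and 2 lower in E-SCs, where 92.1% of the table were called, 36.6% higher and 55.5% lower. Their median log2 difference of -0.08 is only the midpoint between the 2 higher and the 2 lower genes, since no listed gene changed by less than 2-fold. The median of -1.10 over the table lies just past that cut, on the side with more genes. Bdnf, a neurotrophin gene, had scaled counts of 1614 ± 82.4 in E-SCs, 714 ± 161 in M-SCs, against 1431 ± 54.4 in SCs, in the same order as Akap12. It rose by 1.20 on the log2 scale for E-SCs against M-SCs (SE 0.15, limma adjusted p = 1.24e-04) and fell by 1.03 for M-SCs against SCs (SE 0.15, limma adjusted p = 4.12e-04). Vgf, a secreted neuropeptide precursor gene, was at 334 ± 45.9 in E-SCs, against 130 ± 9.93 in M-SCs, and rose by 1.35 (SE 0.13). The immediate early gene Fosb and the MAP kinase phosphatase gene Dusp1 had log2 differences of -1.36 and -1.47, and fell in E-SCs relative to M-SCs. Against SCs, all 3 listed genes, Fos, Fosb and Dusp1, were called lower in E-SCs, where 65.4% of the 185 genes of the table passed, 31.9% higher and 33.5% lower. Their median was -1.31, against 1.05 over the table. For M-SCs against SCs both listed genes, Bdnf and the nuclear receptor gene Nr4a1, were called lower, where 83.2% of the 405 genes passed and 32.8% were called lower.

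A further list of 24 hypoxia and VEGF genes was also looked up. Whether Akap12 acts on any of them was not tested. Most listed ones were highest in M-SCs, where Akap12 was lowest. For E-SCs against M-SCs all 10 listed genes were called, 9 lower and 1 higher in E-SCs, where 92.1% of the table were called, 55.5% lower and 36.6% higher. Their median was -2.13, against -1.10 over the table. For M-SCs against SCs all 7 listed genes were called higher in M-SCs, where 50.4% of the table were called higher, with a median of 1.44 against 1.13. For E-SCs against SCs all 3 listed genes were called lower, where 65.4% of the table were called and 33.5% were called lower, with a median of -1.43 against 1.05. One of these calls, that of Angpt1, was lost in each of the 6 fits that left out 1 library.

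Angptl4, an inhibitor of lipoprotein lipase, had 159, 163 and 102 reads in E-SCs, 1592, 1302 and 1828 in M-SCs, against 466, 429 and 385 in SCs. Angpt1, the ligand of the endothelial receptor Tie2, had 16, 33 and 28 reads in E-SCs, 305, 248 and 335 in M-SCs, against 47, 62 and 62 in SCs. Stc1, a secreted glycoprotein gene, had 23, 20 and 23 reads in E-SCs, 302, 221 and 213 in M-SCs, against 73, 60 and 67 in SCs. These 3 genes were called in all 3 comparisons. No other member could be, because only these 3 were listed for E-SCs against SCs. In these 3 genes the groups did not overlap. That held, in the same order, for 28 of the 222 genes listed for both E-SCs against M-SCs and M-SCs against SCs. The prolyl hydroxylase gene Egln3, the adrenomedullin gene Adm and the lactate exporter gene Slc16a3 fell in E-SCs relative to M-SCs, with log2 differences of -2.18, -2.34 and -2.09, and rose in M-SCs relative to SCs, by 1.22, 1.44 and 1.29. Hif3a, an inhibitory HIF subunit gene, was the 1 member called higher in E-SCs than in M-SCs. It had 22, 27 and 27 reads in E-SCs, against 23, 5 and 10 in M-SCs. The calls of Angpt1 for E-SCs against SCs, of Hif3a for E-SCs against M-SCs and Ankrd37, an ankyrin repeat gene, for M-SCs against SCs rested on few reads, with adjusted p-values of 0.040, 0.038 and 0.033. In the 6 fits that each left out 1 library they stayed past the threshold 0, 1 and 1 times, for Hif3a without M-SCs library 1 and for Ankrd37 without SCs library 1. Vegfa and Hif1a were not listed in any table.

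**Figure D5:**
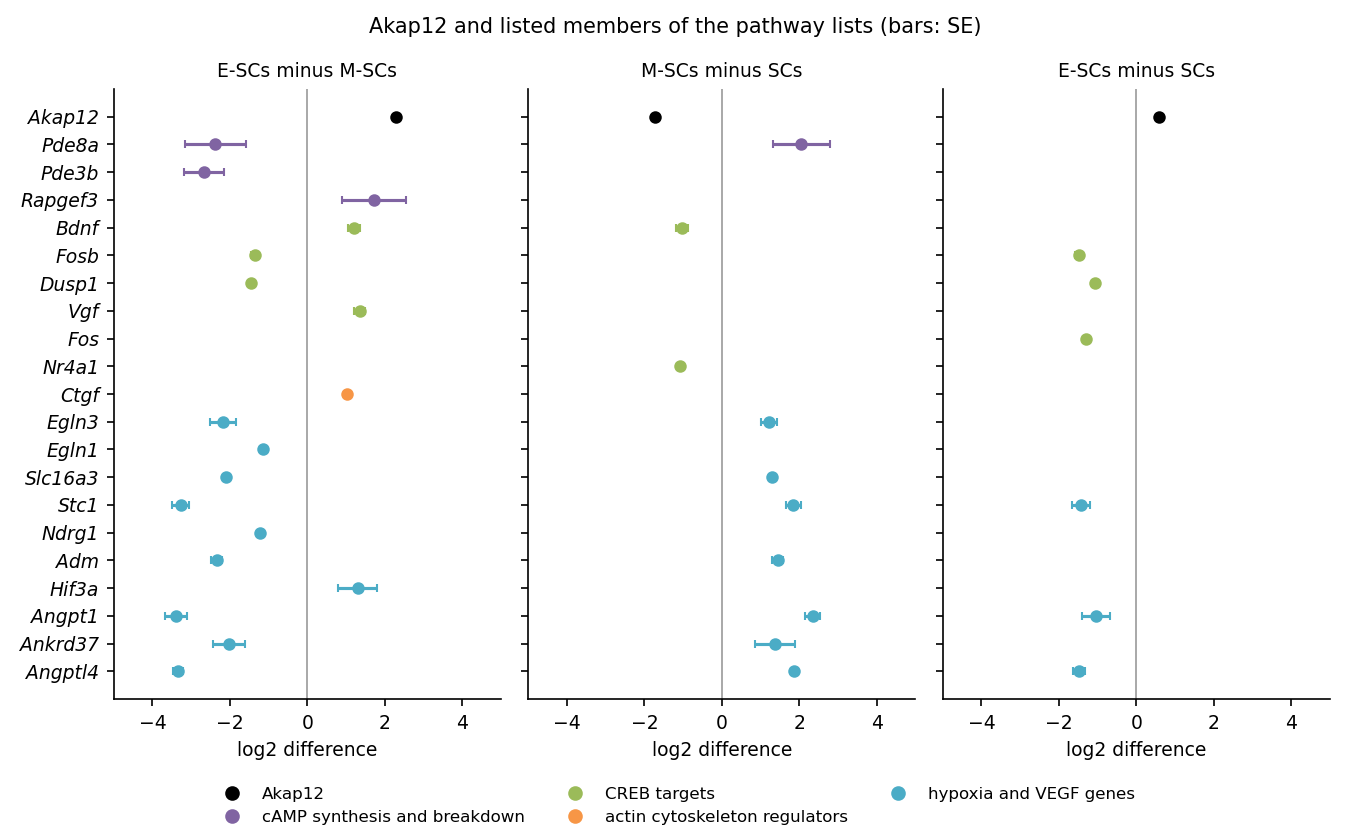
Log2 difference (points) with its SE (bars) of Akap12 and of the members of the pathway lists in the 3 comparisons, where a gene is drawn only if the table of that pair lists it, apart from Akap12 for E-SCs minus SCs. The SE of Akap12 is from the spread of the 3 libraries in each group, and that of the other genes is from limma. Akap12 lies at 2.30, -1.72 and 0.58, and most hypoxia and VEGF genes lie on the other side of 0.

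Relative to the first E-SCs library, library depth ran from 0.868 to 1.16, and reads over the listed genes with a value ran from 266674 to 609452. In all 9 pairs of replicates the counts differed by more than sampling noise, with chi-square values of 5.44 to 14 for each degree of freedom, and no library was counted as a repeat of another. Whether replicate libraries stem from separate cultures is not stated, so each p-value reflects the spread among these libraries alone, and that spread may be technical. Of 7 fibroblast markers 0 were listed, of 7 macrophage and leukocyte markers 1 (Cd14) and of 5 mesenchymal stromal markers 1 (Nt5e). The labelled cell type could not be checked against its markers in tables of selected genes. In the mouse assembly GRCm38.p6, 0 of the 10 protein-coding genes nearest in order to Akap12, 5 on each side, had a symbol listed in any table, and the rat gene order was not used here.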

How the data were processed

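Per the labels' protocols, poly(A) RNA was captured with oligo(dT) beads, primed with random hexamers and sequenced paired-end on an Illumina HiSeq. HISAT2, StringTie and mm10, a mouse build, are named in the submitters' processing notes with no role or version, whereas all 819 gene identifiers were rat, so no coordinates are given. The authors deposited, for each pair of groups, log2(scaled count + 1) per library for selected genes, their own log2 fold change, p-value and FDR, and, in 2 of the 3 tables, FPKM. What test they ran is not given in these sources. In each library, values of up to 1000 reads came out as multiples of a single step, to within 0.01 reads, and this gave whole reads and the relative depth. The authors' fold change for E-SCs and M-SCs runs the other way, as M-SCs minus E-SCs.

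Akap12 and the gene lists were chosen with earlier results of these data known. Named genes were Akap12, the 10 most and 5 least like genes, the 3 genes nearest by FPKM, and the listed members of the lists. Ctgf was matched to its newer symbol. Tests used limma 3.58.1 (R 4.3.3, trend of variance on mean, tested on simulated data) on the authors' log2 values, with Benjamini-Hochberg adjustment at 0.05. E-SCs against SCs was fitted for Akap12 over the 316 genes with values in all 9 libraries, and the lists over all genes of each table. Those genes had been selected on the same libraries, so the adjusted p-values are too small. Python 3.11.15, pandas 2.3.3, numpy 2.4.6, scipy 1.17.1 and matplotlib 3.10.9 gave the rest. Alternatives changed the scale, pseudocount, scaling, filter, pairing and libraries used. The Schwann cell markers are not reported here.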

Additional observations from a re-analysis of the deposited data

How the results depend on the processing

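The order of E-SCs, SCs and M-SCs in the level of Akap12 was kept under the settings run, though not in its share over all genes of each table, and the differences in level stayed within 1 SD of the replicates with log2(FPKM + 1), with pseudocounts of 0.1, with the replicate number as a block and with 1 library left out (2.28 to 2.32 for E-SCs minus M-SCs, -1.74 to -1.71 for M-SCs minus SCs, 0.56 to 0.60 for E-SCs minus SCs). Scaling the libraries to equal medians of the listed genes, which were selected for differing, gave 2.77 for E-SCs minus M-SCs and -2.22 for M-SCs minus SCs, and moved all differences of those tables by 0.46 and -0.50, and those of the table of E-SCs and SCs by -0.23. Ratios of shares gave 1.80, -1.51 and 0.29 in the order above. The share of Akap12 was 35.1% in E-SCs, 5.96% in M-SCs, against 26.1% in SCs of the summed FPKM. Over all genes of the table of E-SCs and M-SCs it was 34.2% in E-SCs and 7.46% in M-SCs, and over that of M-SCs and SCs 17.0% in M-SCs and 45.5% in SCs, since each table holds other genes. With 1 library left out the share was 64.3 to 65.0% in E-SCs, 18.5 to 18.7% in M-SCs, against 52.7 to 53.2% in SCs. The rank by FPKM was 2 in E-SCs and 9 in M-SCs, by scaled count 1 and 2, and among the 222 genes with FPKM in all libraries, an alternative added after seeing the data, 1 and 4. Spearman's rank correlation shared 4 of the 10 most like genes and 1 of the 5 most unlike genes. Of the cyclic AMP genes, 1 to 3 were called for E-SCs against M-SCs and 0 to 1 for M-SCs against SCs with 1 library left out. The same-numbered libraries of the groups did not vary together throughout (correlations of -0.35 to 0.55, 4 of 9 above 0.1), so the numbers were not taken as pairs. Between M-SCs and SCs these correlations were positive, at 0.06, 0.55 and 0.38, while those of differently numbered libraries ran from -0.56 to 0.50. Shared variation between those groups is thus not excluded. With the replicate block the adjusted p for Akap12 in E-SCs against SCs was 8.05e-06 at a log2 difference of 0.58, and the tables gave 493 calls for E-SCs against M-SCs, 122 for E-SCs against SCs and 338 for M-SCs against SCs. A filter keeping genes that averaged 1 FPKM or more in a group, which leaves fewer genes, gave 270 calls in place of 511 for E-SCs against M-SCs and 166 in place of 337 for M-SCs against SCs. For E-SCs against SCs, 121 calls became 79 without E-SCs library 2, 80 without SCs library 1, 78 without SCs library 2 and 80 without SCs library 3. No member of the lists changed direction under any setting.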
